A study of Homo sapiens with 17 samples.

Results

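The sites described here are the positions at which RNA polymerase had the briefest pauses in both replicates of run-on without sarkosyl. A site is a chromosome, strand and position with a deposited pausing time. Of 158141 distinct sites in the 4 tables of the series, 13905 were listed in both sarkosyl-free tables. The 15% quantile of the pausing time over these shared sites was 0.551 in replicate 1 and 0.498 in replicate 2. A site was taken as short when it was at or below the quantile in both tables, which gave 666 short sites and 13239 other shared sites. The members were thus chosen on their sarkosyl-free times, and those times are given below as a description only.

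HEK293, an established line from human embryonic kidney, was assayed by time-variant precision run-on sequencing. Engaged polymerases of permeabilised cells add labelled nucleotides for a set time, and the 3′ ends of the RNA give their positions. Run-on lasted 0.5, 2, 8 or 32 min, with sarkosyl in the buffer (8 libraries) or without it (8 libraries), in 2 replicates of each, which the design text calls biological. No drug or genetic change is given for these 16 libraries, and 1 further sample, named for a Trp treatment, was not analysed here. Each of the 4 tables, 1 per buffer and replicate, holds times fitted over the run-on times, as the table names and sample titles imply.

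RNA polymerase II often halts shortly after it starts, held by pausing factors, and is released into the gene body by a kinase complex. RNA polymerase III makes tRNA, 5S rRNA and other small RNAs from short genes, and the promoter elements of a tRNA gene lie inside its transcribed part. Sarkosyl strips many proteins from DNA while engaged polymerases keep elongating.

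The sequences below show the 2 kinds of short site on which the results turn. All are human GRCh38 sequence from GENCODE release 29 transcripts or RefSeq promoters, 5′ to 3′ on the strand of the site. The site's base is in capitals, with 20 bases before it and 9 after it. The first group lies inside nuclear tRNA genes of RefSeq, with bases counted from the first base of the gene along the site's strand. The 3 sites of the arginine gene TRR-ACG2-1 show how several short sites fall in 1 gene, and the other 4 are sites of a proline, a glycine, a threonine and a tryptophan tRNA gene.
TRR-ACG2-1 base 32 (chr3:45689031-45689060, minus): gcaatggataacgcgtctgaCtacggatca
TRR-ACG2-1 base 59 (chr3:45689004-45689033, minus): tcagaagattctaggttcgaCtcctggctg
TRR-ACG2-1 base 66 (chr3:45688997-45689026, minus): attctaggttcgactcctggCtggctcgcg
TRP-TGG3-2 base 61 (chr14:20684056-20684085, plus): agaggtcccgggttcaaatcCcggacgagc
TRG-GCC2-4 base 60 (chr16:70779041-70779070, minus): gggaggcccgggttcgattcCcggccaatg
TRT-AGT1-2 base 64 (chr17:8226236-8226265, minus): gagatcctgggttcgaatccCagcggtgcc
TRW-CCA1-1 base 31 (chr17:8220901-8220930, minus): cgcaacggtagcgcgtctgaCtccagatca
Sequence was at hand for 13 of the 107 short sites inside tRNA genes, those also covered by an annotated longer transcript. The site base was C in 12 of these 13 and G in 1, and the letters GTTC, part of the inner promoter element called the B box, stood within the 20 bases before the site in 9 of 13. These 13 windows are not all separate, since 3 are of TRR-ACG2-1. The windows of TRP-TGG3-2 and TRP-TGG3-5 have the same letters, as do those of TRE-TTC4-1 and TRE-TTC3-1 and those of TRG-GCC2-4 and TRG-GCC2-1. Of 8 other shared sites inside tRNA genes with sequence, 4 had C, 3 had G and 5 had GTTC before them.

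The second group lies 0 to 60 bp after annotated starts. The first 6 are among the shortest sites of that class by the mean of their ranks in both tables, and the last 2 are copies of a histone H4 gene whose windows have the same letters.
SUSD6, 14 bp after the start (chr14:69611632-69611661, plus): ttctattctccgaagccggcGaccgcccca
SUGT1, 32 bp after the start (chr13:52652878-52652907, plus): gtgatagtagcagctccggcGgcagcaaca
AP1S2, 21 bp after the start (chrX:15854750-15854779, minus): cttctcttcctcagcacggcGacaggggct
SAE1, 18 bp after the start (chr19:47130861-47130890, plus): aggtggcgcgcgggtccggcGggcggttgg
NUFIP2, 10 bp after the start (chr17:29294096-29294125, minus): aagcagtctcagatcctgacGgtgcagcag
ZKSCAN1, 41 bp after the start (chr7:100015620-100015649, plus): gcgtcgggagggcctaagtcCgtgtgcggt
HIST2H4A, 24 bp after the start (chr1:149832682-149832711, plus): gtcatgtccggcagaggaaaGggcggaaaa
HIST2H4B, 24 bp after the start (chr1:149861105-149861134, minus): gtcatgtccggcagaggaaaGggcggaaaa

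The short sites made up 4.79% of the shared sites, a share that follows from the rule and from how far the 2 tables rank sites alike. A further 1423 sites were short in replicate 1 alone and 1421 in replicate 2 alone. The pausing time of the short sites ran from 0.148 to 0.550 in replicate 1 and from 0.134 to 0.498 in replicate 2, with medians of 0.329 and 0.277. The medians of the other shared sites were 2.86 and 5.59. The unit of time is not given in the sources used here, so times are printed as deposited. The tables also hold no read numbers and no expression levels, so the number of reads behind a value is unknown and the cell identity could not be checked from marker genes.

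**Figure D1:**
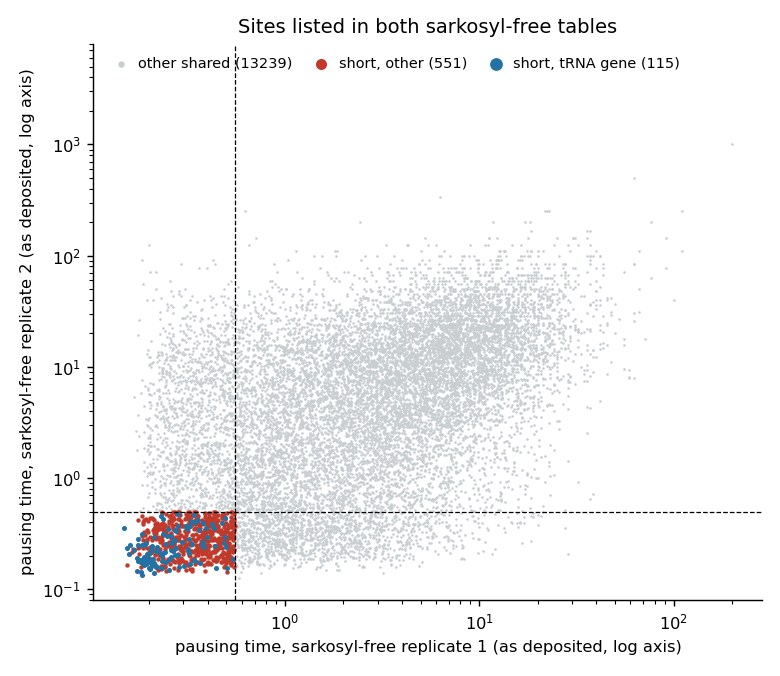
Pausing time of the 13905 shared sites in sarkosyl-free replicate 1 (x axis) and replicate 2 (y axis), both as deposited and on log axes, with 1 point per site. The dashed lines are the 15% quantiles, 0.551 and 0.498; the 666 short sites lie in the lower left corner, 115 of them at tRNA genes (blue) and 551 elsewhere (red).

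Single times were loosely fixed. For each site the tables give the quartiles of the estimate, from which a quartile interval of the time follows. The median ratio of the upper to the lower end of that interval was 4.09 among the short sites in replicate 1 and 3.76 in replicate 2, against 3.07 and 2.39 among the other shared sites. The whole quartile interval lay below both thresholds at 127 short sites (19.1%). The edge of the set was therefore narrow against the error of a site. Just inside the replicate 1 threshold were a site of the mitochondrial tRNA gene MT-TL1 at 0.549, an intronic site of PDZRN4 at 0.550 and an upstream antisense site on chromosome 16 at 0.550. Just outside it were a site on chromosome 1 at 0.553, an intronic site of PCBD2 at 0.554 and a site of the histone gene H1FX at 0.555. Just inside the replicate 2 threshold were ANXA5 at 0.497, PNPLA3 at 0.497 and an intergenic site on chromosome 13 at 0.498. An intergenic site on chromosome 1 (0.498), UBE2E1 (0.498) and DLEU2 (0.499) were just outside.

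Short sites were more often close to starts, intergenic and near another shared site than the rest of the shared sites, and less often in exons and introns. Each site was put in 1 class from GENCODE 29, the first that applied in a fixed order that puts starts before exons and introns. In the first 60 bp after a start lay 154 short sites (23.1%, exact binomial 95% interval 19.97 to 26.5) against 14.7% of the other shared sites. The shares at 61 to 100 bp were 7.66% and 4.87%, and past that, up to 300 bp, they were 7.66% and 6.60%. In exons lay 31 short sites (4.65%, 3.18 to 6.54) against 13.04%, and in introns 83 (12.5%, 10.05 to 15.2) against 23.4%. Past a gene's end, up to 5000 bp, lay 80 short sites (12.01%) against 16.9%. Intergenic positions held 114 short sites (17.1%, 14.3 to 20.2) against 7.39%. Upstream antisense, antisense, mitochondrial and contig positions held 6.16%, 4.20%, 2.40% and 2.55% of the short sites against 4.71%, 3.70%, 2.92% and 1.79%. A protein-coding gene covered, or ended up to 5000 bp before, 52.6% of the short sites and 67.9% of the others. Another shared site lay within 50 bp on the strand for 217 short sites (32.6%, 29.03 to 36.3) against 21.1%. With replicate 2 left out, so that the replicate 1 threshold alone chose the sites, that share was 20.6% against 21.9%. Another short site lay within 50 bp of 47 short sites (7.06%). Intervals cover counting error only, and since neighbouring sites are not independent and sites are not replicates, no test is given.

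**Figure D2:**
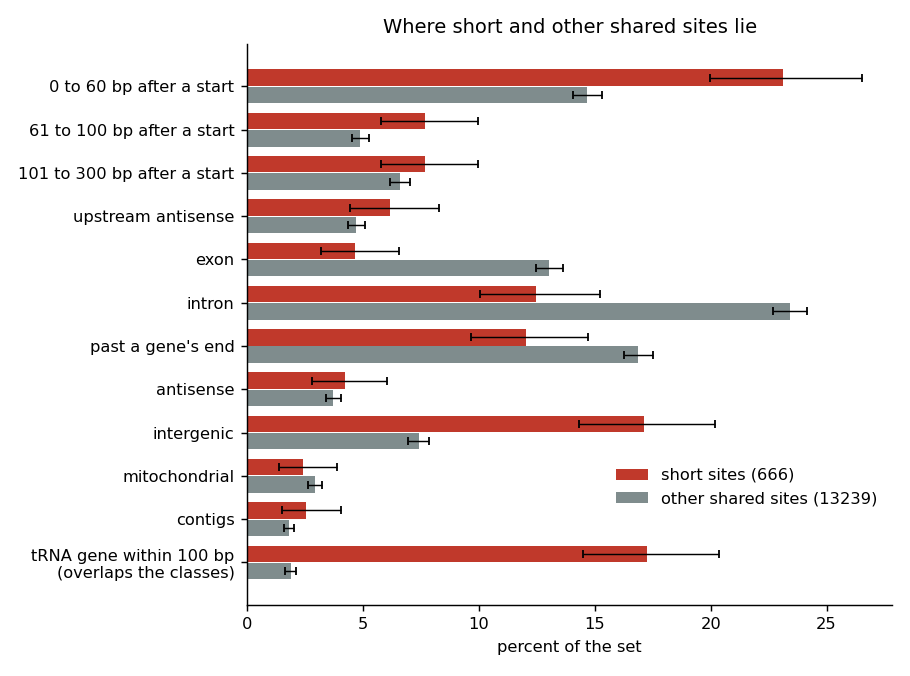
Percent of the 666 short sites (red) and of the 13239 other shared sites (grey) in each class of position; lines are exact binomial 95% intervals. The short sites exceed the others most at tRNA genes (17.3% against 1.87%), at intergenic positions and in the first 60 bp after a start, and fall below them in exons and introns.

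Transfer RNA genes held the part of the set that stood out most. A nuclear tRNA gene of RefSeq lay within 100 bp of 115 short sites (17.3%, 14.5 to 20.4), against 248 other shared sites (1.87%, 1.65 to 2.12). With replicate 1 left out the shares were 6.996% and 1.84%, and with replicate 2 left out they were 7.85% and 1.68%. Inside such a gene were 107 short sites (16.1%) and 72 others (0.544%), so that 59.8% of the shared sites inside tRNA genes were short. Of the 114 intergenic short sites, 63 were at tRNA genes, and 15 each of the intronic sites and of those past a gene's end. Without the sites at tRNA genes the intergenic shares came closer, to 9.26% of the short sites and 6.59% of the others. RefSeq lists 443 nuclear tRNA genes. Of these 239 had a shared site within 100 bp, 96 had a short site and 14 had 2 or more. Chromosome 6, which carries large clusters of tRNA genes, had 68 short sites of 956 shared (7.11%, where 4.79% of all shared sites were short), 31 of them at tRNA genes. Chromosome 16 had 37 of 505 (7.33%), 12 of them at tRNA genes, and chromosome 18 had 9 of 124 (7.26%), 0 of them at tRNA genes. Chromosome 1, with 91 of 1862 (4.89%) and 22 at tRNA genes, was near the share of all. On the plus strand of chromosome 6 between 26537556 and 26556604, 6 of 11 shared sites were short, 5 of them at tRNA genes. The tRNA genes were looked at after the classes had been seen.

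The families of tRNA genes differed in their counts. Of all shared sites within 100 bp of a tRNA gene 31.7% were short, and of those inside a gene 59.8%, since few sites past a gene were short. Inside arginine tRNA genes 24 of 31 shared sites were short, inside lysine genes 13 of 16, inside leucine genes 13 of 17 and inside proline genes 11 of 12. Glycine genes, with 15 of 24, were near the share of all genes, and valine genes, with 8 of 17, and glutamine genes, with 3 of 10, were below it. None of the 9 shared sites inside initiator methionine genes was short. Aspartate genes had 15 shared sites within 100 bp and tyrosine genes 7, none of them short, but each had 1 inside a gene. Many copies within a family are nearly identical, and how reads that match several copies were assigned is not given in the sources used here. Sites of copies are therefore uncertain as separate measurements.

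Within the tRNA genes, whose median length is 73 bases, both short and other shared sites recurred at certain bases. Of all shared sites inside these genes 59.8% were short. The counts by range of bases take in all shared sites within 100 bp of a gene, of which 31.7% were short. Between bases 21 and 40 lay 20 short and 18 other shared sites, and between 41 and 60 lay 36 and 22. Between 61 and 80, where sites past a gene's end are counted too, lay 53 and 94. Of the 248 other shared sites in the whole window, 72 were inside a gene. From base 81 to 100, past the end of most genes, the counts were 2 and 77. None of the 15 shared sites in the 100 bp before the first base and none of the 3 at bases 1 to 20 was short. The strand of the genes was not at hand, so a site antisense to a gene is counted from the gene's other end. Inside the genes, base 59 alone held 18 short sites and 7 others, and base 61 held 16 and 6. Base 31 held 8 and 6, and base 66 held 6 and 0. At base 71 the counts were 5 and 6, and at base 36 they were 3 and 4.

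The same bases recurred in copies of a gene. Base 66 of 6 arginine ACG genes was short, as in the window of TRR-ACG2-1 printed above. Its times ran from 0.181 to 0.233 in sarkosyl-free replicate 1 and from 0.141 to 0.181 in replicate 2. With sarkosyl they ran from 0.403 to 0.644 (4 sites) and from 0.713 to 0.963 (5 sites). Base 59 was short in 5 arginine ACG genes, 4 arginine TCG genes and 7 lysine CTT genes. Base 61 was short in 5 proline AGG, 5 proline TGG and 4 glycine TCC genes, and base 62 in 6 lysine TTT genes. The 5 proline TGG sites ran from 0.154 to 0.207 and from 0.192 to 0.246 without sarkosyl, and from 0.368 to 0.531 and from 0.631 to 0.743 with it. The 4 glycine GCC sites at base 60 were among the longer of these groups, from 0.321 to 0.472 and from 0.370 to 0.404, and from 0.611 to 0.653 and from 0.779 to 0.818 with sarkosyl.

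**Figure D3:**
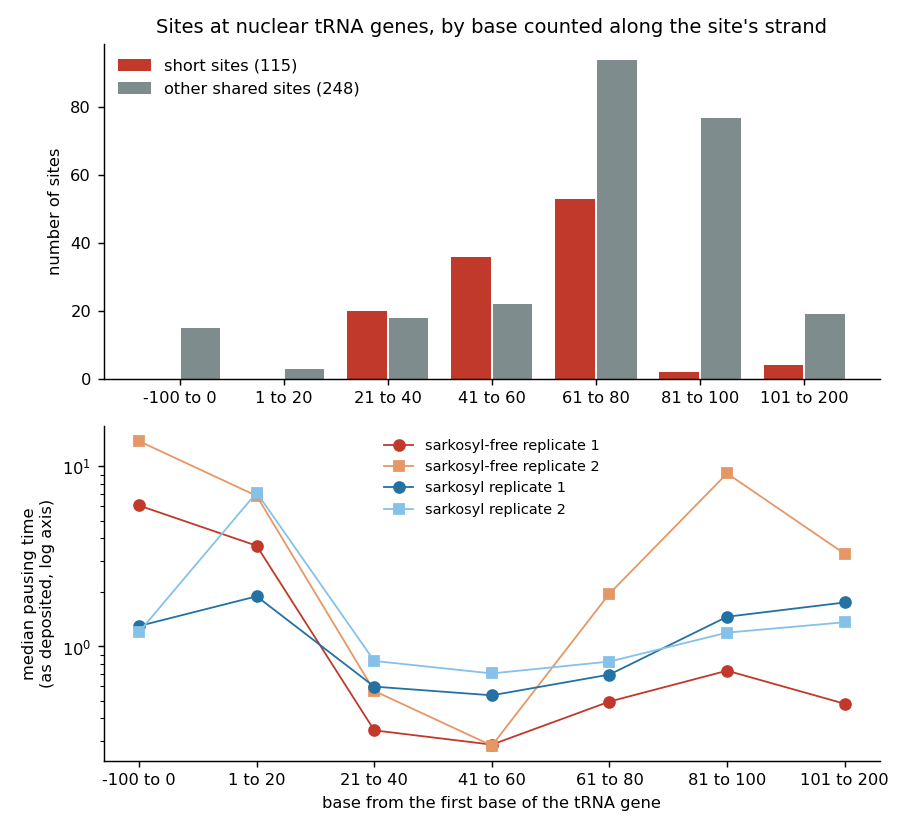
Upper panel: number of short sites (red) and other shared sites (grey) within 100 bp of a tRNA gene, by base from the first base of the gene. Lower panel: median pausing time, on a log axis, of all sites of each of the 4 tables in the same bins; bases 1 to 20 hold only 2 and 1 sites in the sarkosyl tables. In all 4 tables the lowest median is at bases 41 to 60.

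The sarkosyl tables, which the rule did not use, gave a like profile along tRNA genes over all their sites. In sarkosyl replicate 1 the median time was 0.574 for 377 sites inside tRNA genes and 1.498 for 404 sites in the next 100 bp, where the median of all 48566 sites was 1.49. In sarkosyl replicate 2 the medians were 0.768 for 320 sites inside, 1.20 for 303 sites past the gene and 1.34 for all 47713 sites. Bases 41 to 60 had the lowest medians, 0.535 and 0.708. Without sarkosyl the median inside tRNA genes was 0.317 in replicate 1 and 0.365 in replicate 2. Past the gene the sarkosyl-free replicates differed, at 0.984 and 8.37, with 2.23 and 8.00 for all sites.

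Among shared sites inside tRNA genes, those in the set and those outside it had like times with sarkosyl. The medians were 0.589 (71 short sites) and 0.628 (39 others) in replicate 1, and 0.776 (70) and 0.765 (31) in replicate 2. Counting all sites within 100 bp of a tRNA gene, the medians were 0.593 and 1.09 in replicate 1, and 0.781 and 1.07 in replicate 2. The wider window takes in the longer pauses past the gene, where few short sites lay.

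The shortest sites of all were mostly of this kind. By the mean of both ranks the first 3 were in arginine tRNA genes. TRR-ACG1-3 on chromosome 14 (position 22929754) had 0.172 in sarkosyl-free replicate 1 (quartile interval 0.100 to 0.292) and 0.147 in replicate 2 (0.0896 to 0.235), with 0.405 and 0.670 in the sarkosyl tables. TRR-ACG1-1 on chromosome 6 (26328198) had 0.183 and 0.143, and 0.593 and 0.781 with sarkosyl. TRR-ACG1-2, also on chromosome 6 (26537556), had 0.185 and 0.134, and 0.615 and 0.769 with sarkosyl. These copies lay within each other's quartile intervals. The glycine gene TRG-TCC1-1 (chromosome 19, 4724130) had 0.199 and 0.155, and 0.661 and 0.734 with sarkosyl. TRR-TCG3-1, in an intron of KCTD2 (chromosome 17, 75035144), had 0.183 and 0.174, and 0.535 and 0.742 with sarkosyl.

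The 8 shortest sites named here were limited to at most 1 per gene or 1 kb. That limit passed over further tRNA gene sites of TRR-ACG1-3 (22929766) and TRR-ACG1-2 (26537563). The other 3 of the 8 named were not at tRNA genes and were in no sarkosyl table. An intergenic site on the plus strand of chromosome 19 (50099923) had 0.181 and 0.158. An intronic site of CROCC (chromosome 1, 16860256), which encodes a protein of the ciliary rootlet and has near-identical partial copies nearby, had 0.154 and 0.164. A site past MTND1P23 (chromosome 1, 630922), a nuclear pseudogene of a mitochondrial gene, had 0.180 and 0.178.

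Genes with the most short sites were of mixed kinds. Counts here take in sites up to 5000 bp past a gene's end, and 4.79% of all shared sites were short. LINC02226, a long non-coding RNA, had 7 of 52 shared sites, 6 of the 7 past its end. XIST, the RNA of X inactivation, had 5 of 111 (4.50%), below that share, with 1 past its end, CROCC 5 of 14 and KCTD2 4 of 4, all at tRNA genes of its introns. HNRNPU, an RNA-binding protein of the nuclear matrix, had 3 of 46 (6.52%), 2 of them past its end, MT-CO1 3 of 25, AL592295.3 3 of 15, all at glycine tRNA genes, and DONSON, a replication fork protein, 3 of 6. In KCTD2 the 3 sites of TRR-TCG3-1, at bases 32, 59 and 67, had 0.183, 0.245 and 0.257 in sarkosyl-free replicate 1. They had 0.174, 0.257 and 0.189 in replicate 2, and from 0.535 to 0.733 and from 0.698 to 0.797 with sarkosyl. The leucine gene TRL-CAG2-2 on chromosome 16 had 5 short sites of 7 shared. Their times ran from 0.193 to 0.444 in replicate 1 and from 0.154 to 0.182 in replicate 2.

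After annotated starts, taken from transcripts of any type, the short sites were spread over the whole of the first 60 bp. Within the first 60 bp their median distance from the start was 25 bp, against 29 bp for the other shared sites. By bins of 10 bp, the share of shared sites that were short was 8.28% at 0 to 10 bp, 8.95% at 11 to 20, 7.95% at 21 to 30, 5.29% at 31 to 40, 7.14% at 41 to 50 and 5.88% at 51 to 60. All of these were above the 4.79% of the whole, as the class was. At 201 to 300 bp the share was 4.38%.

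**Figure D4:**
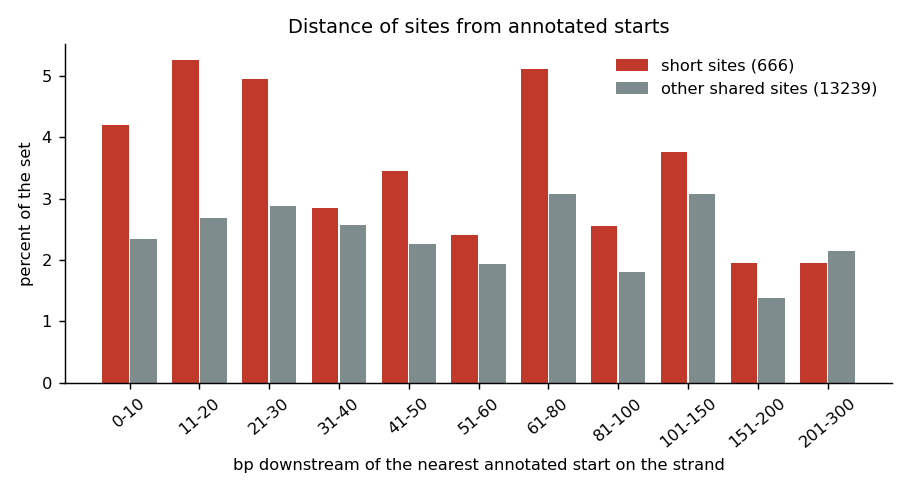
Percent of the 666 short sites (red) and of the 13239 other shared sites (grey) by distance downstream of the nearest annotated start on the strand; the bins are wider past 60 bp. The red bars are higher in every bin but the last, 201 to 300 bp.

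The sites near starts named here were picked as the shortest by their sarkosyl-free ranks, so their times without sarkosyl are low by choice. SUSD6 (sequence above) had 0.176 and 0.180, and 0.775 in sarkosyl replicate 1. NUFIP2, an RNA-binding protein, had 0.230 and 0.154, and 1.11 and 1.10 with sarkosyl. ZKSCAN1, a zinc finger protein, had 0.197 and 0.197, and 0.725 and 1.11. SUGT1, a co-chaperone, had 0.235 and 0.175, and 1.139 and 1.37. In the sarkosyl tables these sites lay above the medians of the short tRNA sites, 0.593 and 0.781, with 1 table listing SUSD6. The medians of all short sites 0 to 60 bp after a start were 0.833 and 1.10. Some sites of that class, such as HIST1H2BD (0.415 and 0.705), lay below the tRNA medians. BCL6, a transcriptional repressor, had 0.165 and 0.229 at 3 bp after its start and 0.9497 in sarkosyl replicate 1. AP1S2, an adaptor subunit of vesicle traffic, had 0.223 and 0.188, and SAE1, a subunit of the SUMO-activating enzyme, had 0.200 and 0.217. Neither was in a sarkosyl table.

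The letters around these start-proximal sites differed from those of other shared sites in the same class. Sequence of 31 bases was at hand for 148 of 154 short sites (96.1%) and 1810 of 1943 others (93.2%). At the site itself G was found in 56.1% of the short sites and 64.6% of the others, and C in 41.9% and 31.4%. The base before was C in 63.5% and 41.5%. The base after was T in 20.9% of the short sites against 43.1%, and G in 41.2% against 15.1%. CGGC right before the site was found in 39 of 148 short sites (26.4%, exact 95% interval 19.5 to 34.2) against 12.98%, as in SUSD6, SUGT1, AP1S2 and SAE1 above. GG from the site on was found in 21.6% against 8.51%. TG right after the site was found in 12 of 148 (8.11%, 4.26 to 13.7) against 24.9%, and TGG in 1 of 148 against 6.57%. Mean G+C over the 31 bases was 68.9% ± 10.6 (SD over 148 sites) against 64.5% ± 11.9 (SD over 1810). The difference of 4.37 percentage points was 2.60 with sarkosyl-free replicate 2 left out of the choice of sites. The letter runs were searched on the site's strand only and were chosen after the bases had been seen. They describe these windows and no factor's site.

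In the sarkosyl tables, which the rule did not use, the short sites as a whole had shorter times than the others. Of the 666, 397 (59.6%) were listed in sarkosyl replicate 1 and 311 (46.7%) in replicate 2, against 32.1% and 24.0% of the other shared sites. Both tables listed 281 short sites (42.2%, 38.4 to 46.0) against 20.3%. The sarkosyl tables list no site on the minus strand of chromosome X, where 15 short sites lie, among them those of XIST and AP1S2. Without that strand the share listed in both was 43.2%. The median time in sarkosyl replicate 1 was 0.842 for short and 1.18 for other shared sites, a log2 difference of -0.49. In replicate 2 the medians were 1.08 and 1.30, a difference of -0.26. The mean difference was -0.37 ± 0.16 (SD, n = 2 tables). Choosing the sites by 1 sarkosyl-free table made it smaller, -0.21 without replicate 1 and -0.17 without replicate 2. With 2 tables no exact test over tables can reach 0.05.

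The sites at tRNA genes carried much of that difference. Without them the medians were 0.958 and 1.19 in replicate 1 and 1.20 and 1.30 in replicate 2, log2 differences of -0.31 and -0.11. The first 60 bp after a start, the largest class, showed next to none, with 0.833 (104 short sites) and 0.861 in replicate 1 and 1.10 (66) and 1.11 in replicate 2. The class nevertheless was short as a whole with sarkosyl, against 1.18 and 1.30 for all other shared sites. Between 61 and 300 bp from the start the difference was larger, except that in the last bin, 201 to 300 bp with tRNA sites included, the short sites were the longer ones in replicate 2 (log2 difference 0.53, and -0.71 in replicate 1). In the whole class over 100 and up to 300 bp from a start, without tRNA sites, the medians were 1.07 (22) and 1.92 in replicate 1. In replicate 2 of that class they were 1.11 (16) and 1.64. At 61 to 100 bp they were 0.9497 (37) and 1.41, and 1.32 (24) and 1.42. Upstream antisense sites had 0.742 (25) and 0.986, and 0.953 (13) and 1.136. Introns had 1.34 (31) and 1.39, and 1.26 (30) and 1.45. In exons, past gene ends, antisense and at intergenic positions the sign differed between the 2 sarkosyl tables or the short sites were the longer ones.

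**Figure D5:**
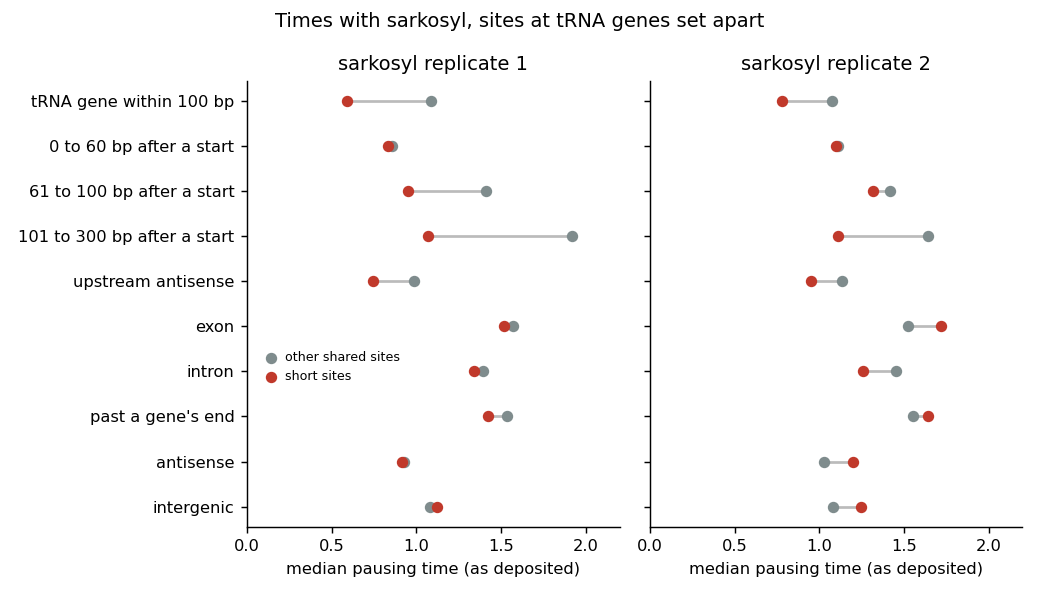
Median pausing time with sarkosyl of short sites (red) and other shared sites (grey) by class, in sarkosyl replicate 1 (left) and replicate 2 (right); sites at tRNA genes are in the first row and left out of the others. The gap in the first row (0.593 and 1.09 in replicate 1) is between short sites mostly inside tRNA genes and others mostly past them, and inside the genes it is nearly closed (0.589 and 0.628). A gap is also seen past 100 bp from a start, but hardly in the first 60 bp.

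The same was seen when short times were counted. Of the 2967 sites listed in all 4 tables, 8.86% were at or below the 15% quantile in both sarkosyl tables. The count was 64 of 281 short sites (22.8%) and 199 of 2686 others (7.41%). Within 100 bp of tRNA genes 47 of 65 short sites (72.3%) and 19 of 91 others passed. Of all shared sites in that window, 107 of 115 short sites but 72 of 248 others were inside a gene. The passing sites were not counted inside genes alone. Away from tRNA genes 17 of 216 short sites (7.87%) passed against 6.94% of the others, a share below the 8.86% of all. In the first 60 bp after a start it was 7 of 62 (11.3%) against 66 of 510 (12.9%). Between the 2 sarkosyl tables Spearman's rho of the times across the 281 short sites was 0.78, and 0.75 across 2686 others, as a description of sites that share libraries.

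The extremes with sarkosyl followed that split. The 3 short sites with the smallest times in both sarkosyl tables were in tRNA genes. The serine gene TRS-AGA2-4 had 0.403 and 0.595, the arginine gene TRR-TCG4-1 0.433 and 0.585, and the proline gene TRP-TGG1-1 0.368 and 0.693. The 3 with the largest were a 5S rRNA pseudogene, RNA5SP370, with 40 and 3.33, EIF3A, a subunit of a translation initiation factor, with 16.1 and 7.04, and an exonic site of Z93241.1, with 10.5 and 8.40. Without sarkosyl those 3 had 0.337, 0.450 and 0.327 in replicate 1 and 0.307, 0.465 and 0.376 in replicate 2. They were thus short in both sarkosyl-free tables and long in both sarkosyl tables. A difference between buffers at a single site was not tested.

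Histone genes were the only listed gene group with a share of short sites above the background. Of 98 shared sites in replication-dependent histone genes 14 (14.3%) were short, each in a different gene of 40 with a shared site, where 4.79% of all shared sites were short. Of the 14, 10 were 0 to 60 bp after the start, of 44 shared sites there, where 7.34% of all sites of that class were short, and 1 was past a gene's end. HIST1H2BD, an H2B gene, had 0.488 and 0.159 at 6 bp after its start, and 0.415 and 0.705 with sarkosyl. HIST1H2AH, an H2A gene, had 0.368 and 0.186, and 0.656 and 0.657. HIST1H1C, a linker histone gene, had 0.344 and 0.168, and 1.29 and 1.05. The copies HIST2H4A and HIST2H4B had 0.427 and 0.182, and 0.490 and 0.161, with 0.922 and 0.857 in sarkosyl replicate 1. Since their windows have the same letters, these 2 cannot be taken as separate. With sarkosyl the histone short sites listed were all 0 to 60 bp after a start, with medians of 0.828 (9 sites) and 0.954 (5). Other histone sites of the same class had 1.05 (24) and 1.23 (19), and other shared sites of that class in all genes had 0.861 and 1.11.

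The remaining lists were at or below the background. Cytosolic ribosomal protein genes had 20 short of 648 shared sites (3.09%) in 17 of 77 genes or past their ends, with 2 each in RPL37, RPS2 and RPSA. Of the 20, 8 lay past a gene's end, and without such sites the count was 12 of 467 (2.57%). The shortest in a coding exon was in RPL38, at 0.163 and 0.216, with 2.37 and 1.85 in the sarkosyl tables. Small nucleolar RNA host genes had 3 of 139 (2.16%), of which SNHG1 had 0.223 and 0.148 at 85 bp after a start. Immediate early genes had 1 of 45, in MYC, with 0.313 and 0.346, and 0.987 and 0.854 with sarkosyl. Heat shock and chaperone genes had 1 of 112, in HSPE1, with 0.314 and 0.464. Genes of pausing and elongation factors had 0 of 12.

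Mitochondrial sites fell differently in the 2 sarkosyl-free tables. The 15% quantile took in 2089 of all 13905 shared sites in replicate 1 and 2087 in replicate 2, and 4.79% of all were short in both. Of 402 shared mitochondrial sites 20 (4.98%) were short in replicate 1, below the 15% of all, and 240 (59.7%) in replicate 2, above it. Short in both were 16 (3.98%), near the share of all. MT-CO1, a subunit of cytochrome c oxidase, had 3 of them, with 0.251, 0.362 and 0.466 in replicate 1 and 0.182, 0.245 and 0.283 in replicate 2. MT-TF, the mitochondrial phenylalanine tRNA gene, had 2, with 0.517 and 0.483, and 0.206 and 0.480. Among the shortest mitochondrial sites was also a plus-strand position (15974) outside the listed genes, with 0.241 and 0.162, which was in no sarkosyl table.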

How the data were processed

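The authors deposited 4 tables of fitted values, 1 per buffer and replicate. Per the file headers a row holds a chromosome, strand, position, a pausing time, and the mean, SD, Monte Carlo error, median and quartiles of the fitted estimate. The deposited time is the reciprocal of the median, and the quartile interval of a time is the reciprocal of the deposited quartiles. The submitters' processing notes name hg38, cutadapt 1.14, HISAT2 2.1.0, SAMtools and bedtools, without their roles. How sites were called, the model and the treatment of reads with several matches are not given in the sources used here. No value column was left without a group (0).

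Sites were matched between tables by chromosome, strand and position with Python 3.11.15, numpy 2.4.6, pandas 2.3.3 and scipy 1.17.1, and plotted with matplotlib 3.10.9. Each site went to the first class that applied: mitochondrial, contig, 0 to 60, 61 to 100 or over 100 and up to 300 bp after a GENCODE 29 start, upstream antisense (up to 500 bp), exon, intron, past a gene's end (up to 5000 bp), antisense or intergenic. The profile of sites around exon ends matched between strands with positions counted from 1 (r = 0.95) and not from 0 (r = -0.21), so they were counted from 1. Nuclear tRNA genes came from RefSeq (GRCh38.p14), whose table gives no strand. Sequence came from GENCODE 29 transcripts and RefSeq promoters. Fewer than 80% of the short sites had it (41.0% within 50 bases of the site), so the planned G+C, base and motif comparisons over all sites are void and bases are given for the first 60 bp after starts.

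Medians and shares are set beside those of the other shared sites, with no test, and share intervals are exact (Clopper-Pearson). The members and gene lists were chosen with earlier results of these data known. Named sites are the 8 with the smallest mean rank (at most 2 mitochondrial), the 3 on each side of each threshold, the 3 longest and 3 shortest with sarkosyl, and those of the 8 genes with most members and of listed genes. The tRNA classes, letter runs, and the sites named as shortest near starts and in coding exons, were chosen after values were seen. The set rule and the difference of medians were tested on simulated data.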

Additional observations from a re-analysis of the deposited data

How the results depend on the processing

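No alternative changed the sign of the sarkosyl difference, and the short sites stayed above the other shared sites in their shares within 300 bp and 60 bp of starts, at tRNA genes and in both sarkosyl tables under every alternative run for these 4 shares. The mitochondrial share was above that of the others in 2 of 6 alternatives (20% quantile and replicate 2 alone), and the share with a neighbour within 50 bp was below it in 1 of 9 (replicate 1 alone). Taking only 1 sarkosyl-free table in turn gave 2087 to 2089 sites. Over these 2 settings the range was 33.7% to 34.7% within 300 bp of a start, 19.3% to 19.7% within 60 bp, 0.957% to 11.5% mitochondrial, 20.6% to 36.1% with a neighbour, 29.2% to 39.8% in both sarkosyl tables and 6.996% to 7.85% at tRNA genes. The log2 sarkosyl difference ran from -0.49 to -0.17 over the settings that leave out 1 table of either buffer. With a 10% quantile 345 sites remained, with 1.16% mitochondrial, 48.1% in both sarkosyl tables and 25.5% at tRNA genes. A 20% quantile gave 1048 sites and 12.6% at tRNA genes. Quantiles over whole tables gave 0.864% mitochondrial and 28.7% with a neighbour. Protein-coding starts alone gave 28.7% and 17.7% for the 300 and 60 bp windows. Windows of 150, 100 and 500 bp gave 35.3%, 31.5% and 49.5% for the 300 bp, 60 bp and neighbour shares. With 1 site per 1000 bp and strand the start shares were 44.2% and 27.4% and the tRNA share 13.8%. Counting positions from 0 turned the base comparisons near starts, to 29.3% of short sites with G at the site against 20.5% of the others, and 10.9% with T after it against 8.29%. Quantiles over whole tables took the G+C difference there to 6.38 points. Settings added after seeing the data left out the tRNA sites, which gave 46.3% and 28.5% near starts, 27.8% with a neighbour and a log2 sarkosyl difference of -0.21, and kept the first 60 bp after starts alone, where that difference was -0.035. The cause of these moves was not tested. The planned wide-window G+C comparison was not run, since too few sites had sequence. No paired analysis was possible because the results come from no test. The depth of the libraries is unknown.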

Other observations

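Chromosome 5 held the largest local group of short sites outside tRNA genes, on the minus strand between positions 8311773 and 8334539. There 16 of 138 shared sites were short, where 4.79% of all shared sites were. Of the 16, 7 were counted to LINC02226, 6 of these past its end, and the rest were intergenic, farther past it. With sarkosyl the group had medians of 1.55 (16 sites) and 1.74 (14 sites). The medians of all short sites were 0.842 and 1.08, and those of short sites away from tRNA genes 0.958 and 1.20. The neighbouring LINC02226 sites at 8333017 and 8333044 had 0.359 and 0.414 in sarkosyl-free replicate 1, 0.341 and 0.374 in replicate 2, 1.39 and 2.23 in sarkosyl replicate 1 and 1.13 and 3.95 in replicate 2. Short sites on contigs had medians of 2.28 (8 sites) and 1.75 (7 sites) with sarkosyl, against 1.44 and 1.20 for the other contig sites. Among them were 4 of 41 shared plus-strand sites between positions 114569 and 158541 of the unplaced contig GL000220. The sites at 114569 and 158541 both lay 2544 bp after the nearest annotated start. Such contigs repeat sequence found elsewhere, so their reads may match several places, and their sites cannot be taken as separate measurements.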
